A study of Mus musculus with 16 samples.

Results

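The olfactory marker protein gene Omp, 3 other genes of mature olfactory sensory neurons (Slc17a6, Umodl1 and Faim2) and 5 genes of the presynaptic terminal (Snap25, Syt1, Syp, Vamp2 and Syn1) were described in sorted cells of the mouse olfactory mucosa. They were taken by gene symbol from the array annotation, and each had exactly 1 probe set, giving 9 of the 22206 probe sets tested. All mice carried the S100a5-tauGFP reporter, in which the promoter of the activity-dependent gene S100a5 drives a green fluorescent protein. The 4 groups were GFP+ cells of mice given 2-hexanone (odor GFP+), GFP- cells of the same mice (odor GFP-), GFP+ cells of mice given filtered air (vehicle GFP+) and GFP- cells of those mice (vehicle GFP-). The 24 mice, males and females aged 7 to 12 weeks, were housed alone in a chamber for 40 h, and from 26 h on received 10 s pulses of odor or filtered air every 20 min. Mucosa of 3 mice was dissociated and pooled, and each of the 8 pools was sorted once into both fractions, so a pool is the replicate and the spread among single mice was not measured. The GFP- fraction holds whatever cells of the mucosa the reporter did not mark, and not only neurons.

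Olfactory sensory neurons detect odorants in the nose with cilia and release glutamate from their axon terminals in the olfactory bulb. Omp is switched on as these neurons mature and is the standard marker of that state. At the terminal, a transporter loads glutamate into synaptic vesicles, SNARE proteins on the vesicle and on the plasma membrane draw both membranes together, and a calcium sensor triggers fusion. Other vesicle membrane proteins organise the vesicle pool. The 5 presynaptic genes are used by many kinds of neuron, so they mark neuronal terminals in general rather than olfactory neurons.

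Promoter sequences from RefSeq (build GRCm38.p6) were found for 5 of the 9 genes, each covering 250 bases before and 50 bases after an annotated start. The pair below is shown because Syn1 separated the fractions most clearly and is widely used as a neuron-restricted promoter, and because Umodl1 is a gene of mature olfactory neurons. Capitals mark letters found in a search of both strands for the cyclic AMP response element (TGACGTCA), the left part of the element bound by the neuronal gene repressor REST (TTCAGCACC) and the core recognised by Ebf factors (CCCNNGGG).
Syn1 at chrX:20920869-20921168, minus strand: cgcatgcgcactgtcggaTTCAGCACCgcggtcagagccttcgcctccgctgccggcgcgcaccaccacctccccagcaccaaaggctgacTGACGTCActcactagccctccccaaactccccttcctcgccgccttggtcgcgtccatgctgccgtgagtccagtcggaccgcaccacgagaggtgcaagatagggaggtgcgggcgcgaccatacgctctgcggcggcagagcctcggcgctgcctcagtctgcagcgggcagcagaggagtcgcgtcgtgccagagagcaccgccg
Umodl1 at chr17:30954433-30954732, plus strand: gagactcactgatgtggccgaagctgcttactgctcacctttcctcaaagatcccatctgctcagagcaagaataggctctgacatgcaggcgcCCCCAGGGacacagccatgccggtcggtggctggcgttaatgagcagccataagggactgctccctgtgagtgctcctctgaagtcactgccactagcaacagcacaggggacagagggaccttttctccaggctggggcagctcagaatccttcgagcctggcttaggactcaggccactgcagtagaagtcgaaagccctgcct
In Syn1 the REST part occupies bases 19 to 27 and the cyclic AMP response element bases 92 to 99 of the window. In Umodl1 the Ebf core occupies bases 95 to 102. Of 32851 promoter windows of this length, 0.371% held the REST part, 1.79% the cyclic AMP response element and 13.7% the Ebf core. Each sequence was found in 1 of the 5 genes, and the windows of Slc17a6, Syt1 and Syp, which are not printed, held none of them. A match shows only that the letters are there, and no binding was measured.

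The values are log2 signals that reached 19.81, above the 16 bits of a scanner, so an unstated transformation had been applied and all differences and folds below are on that scale. Signals of different probe sets are not levels per transcript, and the order of the 9 genes on the scale says how near each lay to its upper end, not which transcript was more abundant. A background floor, the highest of 23 antigenomic probe bins on each array, lay between 6.16 and 7.33. S100a5 itself averaged 16.72 ± 0.38 in odor GFP+, 15.11 ± 0.15 in odor GFP-, 16.42 ± 0.41 in vehicle GFP+ and 15.04 ± 0.43 in vehicle GFP- samples (SD, n = 4 pools each). Since its promoter drives the sorted reporter, its higher level in GFP+ cells follows the sort. Array medians were 5.70 to 5.76 in GFP+ samples and 6.06 to 6.12 in GFP- samples. The replicate 1 pools stood apart for these genes: averaged over the 9, their GFP+ arrays lay 0.42 (odor) and 0.46 (vehicle) above the mean of all arrays, the highest of the 16, while the GFP- array of vehicle replicate 4 lay lowest (-0.50). Tests were limma fits to all 16 arrays, with p-values adjusted by the Benjamini-Hochberg method over all tested probe sets and a threshold of 0.05.

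Across the GFP+ and GFP- fractions, 5 of the 9 genes rose in GFP+ cells when the comparison used pools of both treatments: Syn1, Snap25, Syt1, Faim2 and Slc17a6, by 1.31-fold to 1.72-fold. None fell. Omp did not pass (1.03-fold), nor did Umodl1, Syp or Vamp2 (1.28-fold, 1.20-fold and 1.22-fold). Over all tested probe sets, 13.4% rose and 13% fell in this comparison, and the median difference was 0.15 on the log2 scale, against 0.39 for the 9 genes. Within odor 3 of the 9 rose (5.29% of all probe sets) and within vehicle 1 did (5.83% of all probe sets). The odor and vehicle comparisons use separate arrays, and their median differences over the 9 genes were 0.38 and 0.40.

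**Figure D1:**
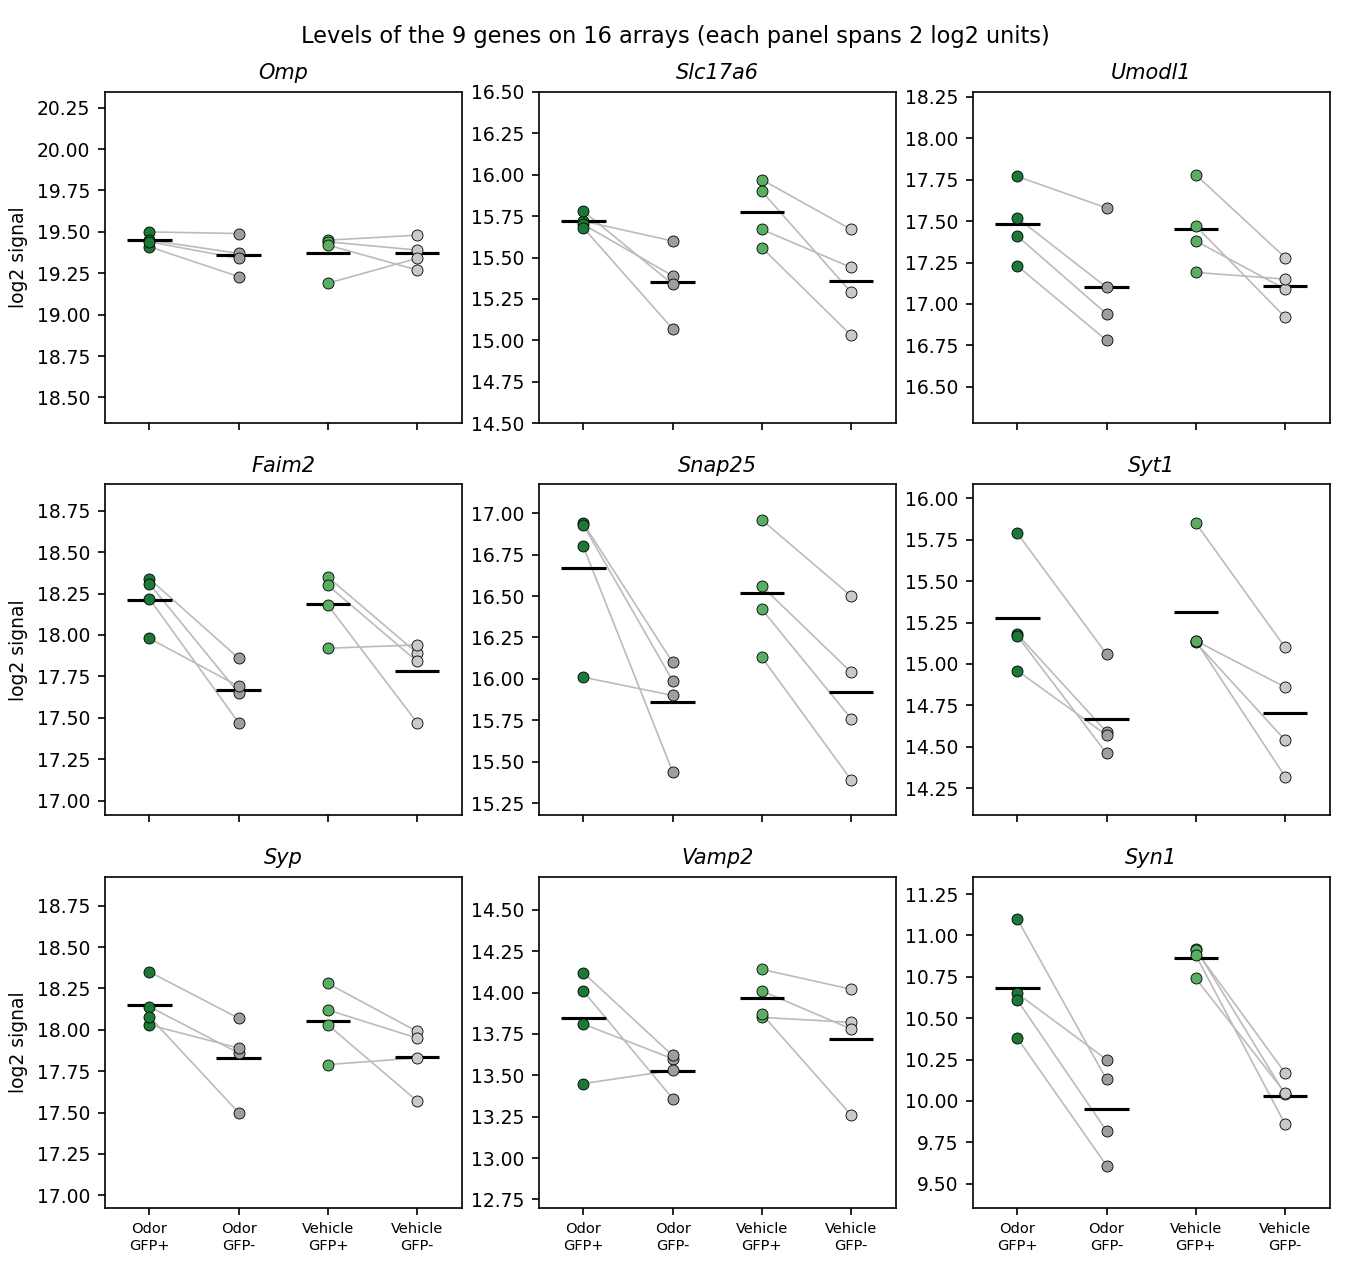
Log2 signal of the 9 genes on each of the 16 arrays, with 1 point per pool, a bar at each group mean and a line joining the fractions of a pool (each panel has its own axis, all of the same length). Omp sits between 19.19 and 19.50 in every group, whereas the GFP+ points of Syn1 (10.38 to 11.10) all lie above its GFP- points (9.61 to 10.25).

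Omp, whose product is an abundant cytoplasmic protein of mature olfactory neurons, was at the upper end of the scale in both fractions. In odor pools 1 to 4 its log2 signal was 19.50, 19.45, 19.41 and 19.44 in GFP+ cells, against 19.49, 19.37, 19.23 and 19.34 in GFP- cells. In vehicle pools it was 19.45, 19.44, 19.19 and 19.42 in GFP+ cells, against 19.48, 19.39, 19.34 and 19.27 in GFP- cells. The groups overlapped throughout, and within a pool the GFP+ sample was the higher in 6 of 8. The difference over both treatments was 0.05 ± 0.10 (SE, 95% interval -0.16 to 0.26, limma adjusted p = 0.749), with 0.09 ± 0.14 in odor (adjusted p = 0.733) and 0.01 ± 0.14 in vehicle (adjusted p = 0.988). Omp lay 0.28 to 0.44 below the highest value of its array and ranked between 8 and 13 among all probe sets. At a level this close to the top, the interval does not show equal transcript levels. With every array centred on its median, which puts the median difference over all probe sets at 0.51 in place of 0.15, Omp passed at 0.41 (limma adjusted p = 0.00229). With arrays centred on 18 mature neuron markers it stood at -0.20 and did not pass. That centring lowers the difference of every probe set by the same amount and puts the median over all probe sets at -0.09.

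Slc17a6 encodes the vesicular glutamate transporter of olfactory sensory neurons, and it rose in GFP+ cells over both treatments. Its log2 signal was 15.72, 15.70, 15.68 and 15.78 in odor GFP+ cells, against 15.60, 15.39, 15.07 and 15.34 in odor GFP- cells. In vehicle it was 15.97, 15.90, 15.67 and 15.56 in GFP+ cells, against 15.67, 15.29, 15.44 and 15.03 in GFP- cells. The odor groups did not overlap, the vehicle groups did, and GFP+ cells were higher in 8 of 8 pools. The difference was 0.39 ± 0.12 over both treatments (1.31-fold, limma adjusted p = 0.0249), 0.37 ± 0.18 in odor (adjusted p = 0.184) and 0.42 ± 0.18 in vehicle (adjusted p = 0.127). The call over both treatments was lost without odor replicate 2, 3 or 4 (limma adjusted p = 0.0553, 0.0697 and 0.0666) or vehicle replicate 2 (0.0808).

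The other vesicular transporters and synthetic enzymes on a list of transmitter markers gave no signal above the floor. Of its 10 genes 9 were measured, and all 9 were below the floor on all 16 arrays. They were the vesicular glutamate transporters Slc17a7 and Slc17a8, the inhibitory amino acid transporter Slc32a1, the monoamine transporter Slc18a2, the acetylcholine transporter Slc18a3, the GABA enzymes Gad1 and Gad2, the dopamine enzyme Th and the acetylcholine enzyme Chat. Differences below the floor are not read here. The lowest Slc17a6 value on any array was 15.03.

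Umodl1, which encodes olfactorin, a glycoprotein of olfactory sensory neurons, averaged 17.48 ± 0.23 in odor GFP+ and 17.10 ± 0.35 in odor GFP- arrays, and 17.45 ± 0.24 in vehicle GFP+ and 17.11 ± 0.15 in vehicle GFP- arrays (SD, n = 4 pools a group). GFP+ cells were higher in 8 of 8 pools, by 0.04 (vehicle replicate 3) to 0.55 (vehicle replicate 4). The groups overlapped in both treatments, since the replicate 1 GFP- samples (17.58 in odor, 17.28 in vehicle) lay above some GFP+ samples. The difference of 0.36 ± 0.14 over both treatments did not pass (limma adjusted p = 0.0647). It passed with the pool, which both fractions share, as a random block (adjusted p = 0.0331) or a fixed block (adjusted p = 0.0297), and without odor replicate 1 (adjusted p = 0.0407). In all it passed in 10 of 20 alternative settings, among them a trended prior, quantile normalization, the filter on the dimmest 40% of probe sets and array weights (limma adjusted p = 0.0188 to 0.0482).

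Faim2 encodes a neuronal membrane protein that inhibits cell death signalled through Fas, and it rose in GFP+ cells in odor and over both treatments. Its log2 signal was 18.34, 18.31, 17.98 and 18.22 in odor GFP+ cells, against 17.86, 17.65, 17.69 and 17.47 in odor GFP- cells. In vehicle it was 18.35, 18.30, 17.92 and 18.18 in GFP+ cells, against 17.89, 17.84, 17.94 and 17.47 in GFP- cells. The odor groups did not overlap, and in vehicle only the pair of replicate 3 ran the other way (-0.03). The difference was 0.54 ± 0.17 in odor (1.46-fold, limma adjusted p = 0.0367), 0.40 ± 0.17 in vehicle (adjusted p = 0.128) and 0.47 ± 0.12 over both (1.39-fold, adjusted p = 0.00640). The odor call was lost without any 1 of the 4 odor pools (limma adjusted p = 0.0828, 0.154, 0.0510 and 0.177 for replicates 1 to 4), without vehicle replicate 2 (0.0568) and when the fit held the odor arrays alone (0.0629).

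Among the SNARE genes, Snap25 rose and Vamp2 did not pass. Snap25 encodes the plasma membrane SNARE of nerve terminals. Its log2 signal was 16.94, 16.93, 16.01 and 16.80 in odor GFP+ cells, against 16.10, 15.99, 15.90 and 15.44 in odor GFP- cells. In vehicle it was 16.96, 16.56, 16.42 and 16.13 in GFP+ cells, against 16.50, 16.04, 15.76 and 15.39 in GFP- cells. GFP+ cells were higher in 8 of 8 pools, but the groups overlapped in both treatments, in odor through replicate 3, whose fractions differed by 0.11. The difference was 0.81 ± 0.26 in odor (1.76-fold, limma adjusted p = 0.0461), 0.59 ± 0.26 in vehicle (adjusted p = 0.152) and 0.70 ± 0.19 over both (1.63-fold, adjusted p = 0.00905). The odor call was lost without odor replicate 1, 2 or 4 (limma adjusted p = 0.122, 0.156 and 0.250) and without vehicle replicate 2 or 3 (0.0694 and 0.0623).

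Vamp2 encodes the vesicle SNARE that pairs with Snap25. Its log2 signal averaged 13.85 ± 0.29 in odor GFP+ and 13.53 ± 0.12 in odor GFP- arrays, and 13.97 ± 0.13 in vehicle GFP+ and 13.72 ± 0.33 in vehicle GFP- arrays (SD, n = 4 pools a group). The groups overlapped in both treatments, and GFP+ cells were higher in 7 of 8 pools, the exception being odor replicate 3 (-0.08). The difference of 0.28 ± 0.13 over both treatments did not pass (1.22-fold, limma adjusted p = 0.132).

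Syt1, the calcium sensor for fast vesicle fusion, rose over both treatments. Its log2 signal was 15.79, 15.18, 14.96 and 15.17 in odor GFP+ cells, against 15.06, 14.59, 14.57 and 14.46 in odor GFP- cells. In vehicle it was 15.85, 15.13, 15.14 and 15.14 in GFP+ cells, against 15.10, 14.54, 14.86 and 14.32 in GFP- cells. The vehicle groups did not overlap. In odor the highest GFP- sample, replicate 1, exceeded the lowest GFP+ sample, replicate 3. The difference was 0.61 ± 0.23 in each treatment (limma adjusted p = 0.0974 in odor and 0.0922 in vehicle) and 0.61 ± 0.17 over both (1.52-fold, adjusted p = 0.0106), with GFP+ cells higher in 8 of 8 pools. With the pool as a random block both single treatments passed (limma adjusted p = 0.0473 in odor and 0.0444 in vehicle), as they did with the pool as a fixed block (0.0219 and 0.0206).

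Of the vesicle proteins, Syn1 separated the fractions most clearly of the 9 genes and Syp did not pass. Syn1 encodes a phosphoprotein that tethers vesicles to each other and to the cytoskeleton. Its log2 signal was 11.10, 10.65, 10.38 and 10.61 in odor GFP+ cells, against 10.13, 10.25, 9.61 and 9.82 in odor GFP- cells. In vehicle it was 10.92, 10.74, 10.91 and 10.88 in GFP+ cells, against 10.04, 10.05, 10.17 and 9.86 in GFP- cells. All 8 GFP+ samples lay above all 8 GFP- samples, as they did for 2.87% of all probe sets. The difference was 0.73 ± 0.18 in odor (1.66-fold, limma adjusted p = 0.00954), 0.83 ± 0.18 in vehicle (1.78-fold, adjusted p = 0.00332) and 0.78 ± 0.13 over both (1.72-fold, adjusted p = 0.000142). The odor call was lost without odor replicate 4 (limma adjusted p = 0.0549).

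Syp encodes synaptophysin, an abundant membrane protein of synaptic vesicles. Its log2 signal averaged 18.15 ± 0.14 in odor GFP+ and 17.83 ± 0.24 in odor GFP- arrays, and 18.06 ± 0.20 in vehicle GFP+ and 17.84 ± 0.19 in vehicle GFP- arrays (SD, n = 4 pools a group). GFP+ cells were higher in 7 of 8 pools, with vehicle replicate 3 at -0.04. The groups overlapped in both treatments. The difference of 0.27 ± 0.12 over both treatments did not pass (1.20-fold, limma adjusted p = 0.118).

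Counted without a model, 3 of the 9 genes (Slc17a6, Faim2 and Syn1) had all odor GFP+ samples above all odor GFP- samples, as did 9.4% of all probe sets. In vehicle 2 did (Syt1 and Syn1), with 9.01% of all probe sets. In 8 of 8 pools GFP+ cells were higher for 5 genes (Slc17a6, Umodl1, Snap25, Syt1 and Syn1), as they were for 10.9% of all probe sets. Without both replicate 1 pools, which stood apart, 0 of the 9 passed in odor, with Syn1 nearest (limma adjusted p = 0.0549). The calls depended more on scaling: with median-centred arrays all 9 passed in odor, in vehicle and over both treatments, where 38.4%, 40.5% and 65% of all probe sets rose. With arrays centred on the mature neuron markers 2 passed over both treatments, Snap25 (0.46, limma adjusted p = 0.0371) and Syn1 (0.54, adjusted p = 0.00874), where 3.44% of all probe sets rose.

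**Figure D2:**
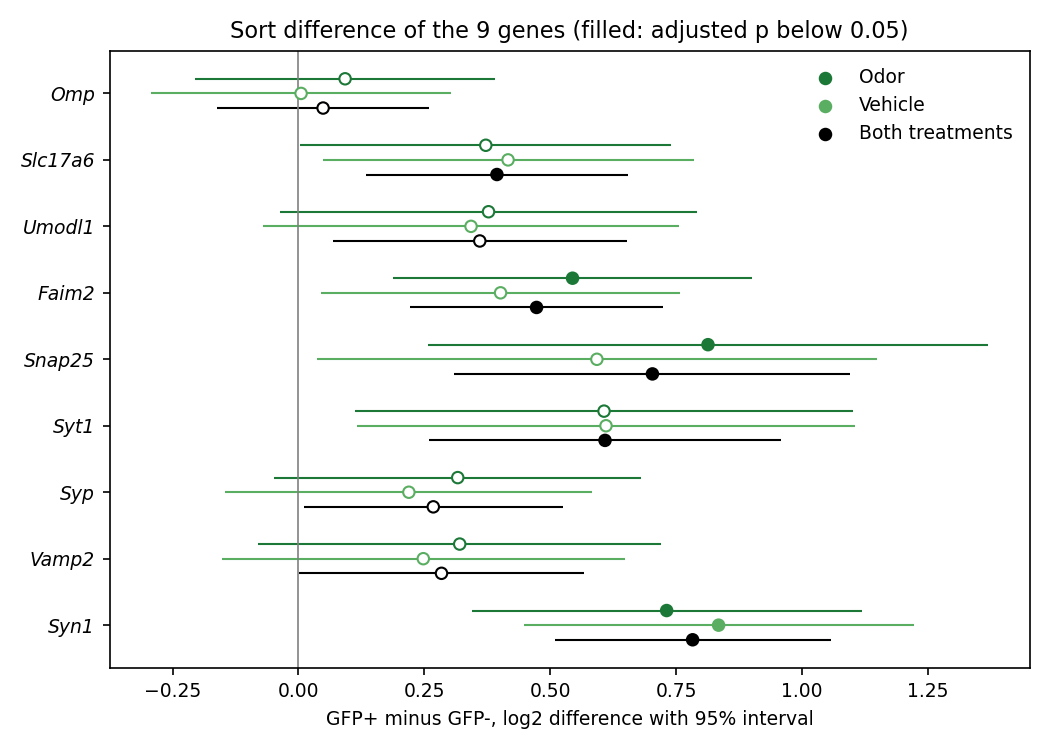
GFP+ minus GFP- difference in log2 signal for the 9 genes, in odor, in vehicle and over both treatments, with 95% confidence intervals from limma and filled points where the adjusted p was below 0.05. Syn1 is filled in all comparisons (0.73, 0.83 and 0.78), and the intervals of Omp include 0 in each.

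The comparison of odor with vehicle asked whether exposure to 2-hexanone went with a change of these genes within a fraction. None of the 9 passed in GFP+ cells or in GFP- cells, and the groups overlapped for all of them. In GFP+ cells the odor minus vehicle differences lay between -0.18 (Syn1) and 0.16 (Snap25), and the lowest unadjusted p was 0.346. In GFP- cells they lay between -0.19 (Vamp2) and -0.01, and the lowest unadjusted p was 0.328. The difference between the sort differences of odor and vehicle lay between -0.10 (Syn1) and 0.22 (Snap25), with a lowest unadjusted p of 0.558. Few probe sets passed anywhere in these comparisons: 0.00901% in GFP+ cells, 0% in GFP- cells and 0.00901% for the change of the sort difference, while 869, 547 and 650 of all probe sets had an unadjusted p below the threshold. For Omp in GFP+ cells the samples averaged 19.45 ± 0.04 in odor and 19.38 ± 0.12 in vehicle (SD, n = 4 each), and for Syn1 10.69 ± 0.30 in odor and 10.86 ± 0.08 in vehicle. Over all alternative settings run, the lowest adjusted p of any of the 9 was 0.953 in GFP+ cells. A p that misses the threshold does not show that the levels were equal.

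The intervals bound what 4 pools a group could show. In GFP+ cells the 95% interval of the odor minus vehicle difference ran from -0.22 to 0.37 for Omp, from -0.42 to 0.31 for Slc17a6, from -0.40 to 0.71 for Snap25, from -0.53 to 0.46 for Syt1 and from -0.57 to 0.21 for Syn1. In GFP- cells it ran from -0.31 to 0.29 for Omp, from -0.62 to 0.49 for Snap25 and from -0.46 to 0.31 for Syn1. The widest of these belonged to Snap25 and the narrowest to Omp. Each width rests on 1 estimate of the spread per probe set over all 16 arrays. For Snap25 the SD was 0.44 in odor GFP+, 0.29 in odor GFP-, 0.34 in vehicle GFP+ and 0.47 in vehicle GFP- samples.

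Measured against the top of the scale, the 9 genes spanned from Omp at a mean of 19.39 to Syn1 at 10.38. The highest value of an array lay between 19.51 and 19.81. Syp (17.97), Faim2 (17.96) and Umodl1 (17.29) ranked 42, 43 and 76 by mean among all probe sets, and the order of Syp and Faim2 differed from array to array (rank ranges 32 to 64 and 31 to 70). Snap25 (16.24), Slc17a6 (15.55), Syt1 (14.99) and Vamp2 (13.76) ranked 168, 249, 351 and 739. Syn1 ranked 4005 and lay 8.60 to 10.06 below the highest value of its array, yet at least 2.85 above the floor. All 9 were above the floor on all 16 arrays. Of the named genes above Omp by mean, Stoml3 (19.75), Gnb1 (19.61), Fstl5 (19.59), Plekhb1 (19.51), Gfy (19.51) and Stom (19.47) did not pass in the sort comparison, and differences among the 20 brightest probe sets all lay between -0.11 and 0.11.

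Differences between fractions were smaller near the top for all probe sets, not only for these genes. Of 39 probe sets with a mean over 18, a group that holds Omp, 5.13% rose in GFP+ cells over both treatments. As many fell (2) as rose (2), and differences ran from -0.69 to 0.49, with quartiles of -0.03 and 0.08. From 17 to 18, where Umodl1, Faim2 and Syp lay, 8.62% of 58 rose, with differences from -0.84 to 0.67. From 15 to 17, the range of Slc17a6 and Snap25, 19.8% of 253 rose, with differences from -4.07 to 2.52. From 12 to 15, the range of Syt1 and Vamp2, 17.5% of 1646 rose, and from 9 to 12, the range of Syn1, 20.6% of 4186. The quartiles of the difference from 9 to 12 were -0.05 and 0.36. At the dim end 18.4% of 4811 rose from 6 to 9 and 7.85% of 11213 under 6. The groups differ in size, and the extremes of a larger group lie farther out for that reason too. The spread between replicates was smaller near the top too, with a median SD of 0.13 over 18 and 0.27 from 9 to 12. How far compression of the scale limited the differences of Omp, Syp, Faim2 and Umodl1 was not tested.

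**Figure D3:**
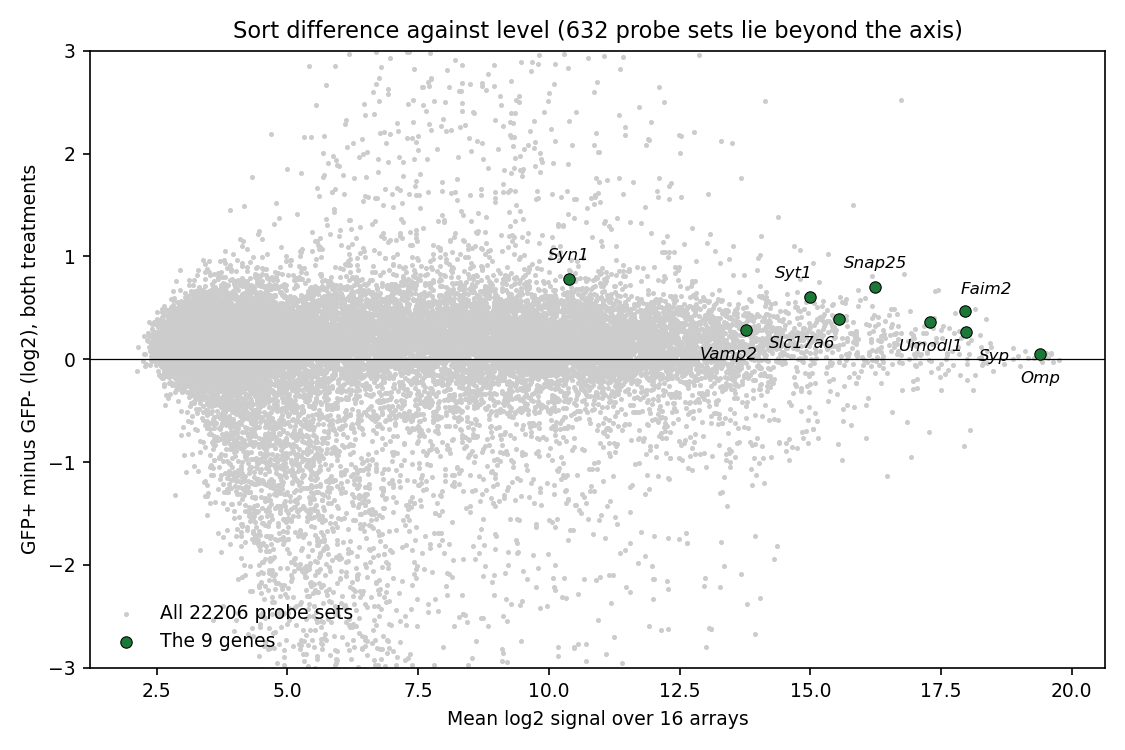
GFP+ minus GFP- log2 difference over both treatments (vertical) against mean log2 signal (horizontal) for all probe sets (grey), with the 9 genes marked in green and 632 probe sets beyond the axis. Differences over a mean of 18 lie between -0.69 and 0.49, and Omp (19.39, 0.05) sits at the right end.

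The genes most like each member were found by the root mean square distance of their array values, each gene centred on its own mean, over all 16 arrays and among genes within 1 log2 unit of the member's mean. For Omp these were Stom, Plekhb1 and Stoml3, at distances of 0.0408, 0.0481 and 0.0501, against a deviation of Omp about its own mean of 0.0890. Its candidates numbered 14, with a median distance of 0.0773. The nearest gene to Faim2 was Syp (0.138), another of the 9, while Syp lay nearest to Clgn (0.0803) and Umodl1 to Cnga2 (0.129). Slc17a6 was nearest to Scrn1 (0.122), Syt1 to Ncoa1 (0.124), Vamp2 to Cbll1 (0.151), Syn1 to Zdhhc23 (0.185) and Snap25 to Pde7b (0.192). All points share arrays and treatment groups, and the distances are a description.

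Other genes of the terminal rose more often than fell in GFP+ cells. Of 82 further presynaptic genes 77 were measured. Over both treatments 29 rose and 3 fell, against 13.4% and 13% of all probe sets, shares that also apply to each list below. The median difference was 0.34, against 0.15 over all probe sets. Of the 77, 49 were above the floor on every array and 18 on none. Within odor 11 rose and 0 fell (5.29% of all probe sets rose). Within vehicle 16 rose and 1 fell (5.83% of all probe sets rose), and none passed between odor and vehicle. The count followed the scaling, with 63 of 77 rising after median centring (65% of all probe sets) and 11 after centring on the mature neuron markers (3.44%), where the vesicle proteins below had 6 higher and 3 lower.

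Of 20 vesicle proteins 11 rose and 2 fell, with a median of 0.45. Syngr1, the vesicle membrane protein synaptogyrin, averaged 13.32 ± 0.22 in GFP+ samples of both treatments and 11.74 ± 0.30 in the GFP- samples (SD, n = 8 pools), a difference of 1.58 ± 0.14 (limma adjusted p = 7.16e-08). Syn2, a relative of Syn1, was higher by 1.22 ± 0.16, and the vesicular amino acid transporter Slc6a17 by 1.13 ± 0.15. Among those that did not pass were Atp6v0a1, a subunit of the proton pump that fills vesicles (0.32 ± 0.14, limma adjusted p = 0.0921), and the vesicle GTPase gene Rab3b (-0.22 ± 0.12, adjusted p = 0.204). The members that fell were Sypl (8.54 in GFP+ and 9.25 in GFP- samples, -0.71 ± 0.15), a synaptophysin relative found in many tissues, and Rab3d (-0.42), a Rab GTPase best known from secretory cells. Rab3d was above the floor on 4 of 8 GFP+ arrays, and its difference was -0.25 with arrays under the floor raised to it. Its call (limma adjusted p = 0.0422) was lost without odor replicate 2, 3 or 4 or vehicle replicate 2 or 3 (adjusted p = 0.0789 to 0.130), with a trended prior (0.0647), with quantile normalization over all arrays (-0.12, 0.562) and with median-centred arrays (-0.06, 0.705).

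Of 19 fusion genes 16 were measured, 6 rose and 0 fell, with a median of 0.33. Nsf, the ATPase that takes used SNARE complexes apart, averaged 13.11 ± 0.40 in GFP+ and 12.37 ± 0.38 in GFP- samples (0.74 ± 0.20, limma adjusted p = 0.00937). The vesicle priming genes Unc13a and Unc13c were higher by 0.61 and 0.49. Both calls were lost with arrays centred on the mature neuron markers (limma adjusted p = 0.372 and 0.403). Napa, which links Nsf to SNARE complexes, had a difference of 0.22 and the syntaxin-binding gene Stxbp5l of 0.29, and neither passed. Of 14 other synaptotagmins 13 were measured, 4 rose and 0 fell. Syt4 averaged 12.23 ± 0.41 in GFP+ and 10.89 ± 0.43 in GFP- samples (1.34 ± 0.20, limma adjusted p = 3.62e-05) and Syt14 was higher by 0.60. The call of Syt14 was lost with arrays centred on the mature neuron markers (limma adjusted p = 0.116). Syt10 was higher by 0.73, with 6 of 8 GFP- arrays above the floor and 0.63 with the others raised to it. Syt11 (0.39, limma adjusted p = 0.161) and Syt7 (0.17) did not pass, and Syt11 passed with the pool as a fixed block (adjusted p = 0.0350).

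Of 19 active zone genes 18 were measured, 4 rose and 0 fell, with a median of 0.26. Apba1, an adaptor that binds the fusion protein Munc18, averaged 12.75 ± 0.22 in GFP+ and 11.70 ± 0.32 in GFP- samples (1.05 ± 0.15). The scaffold genes Bsn and Ppfia2 were higher by 0.69 and 0.54. Bsn was above the floor on 6 of 8 GFP- arrays, and its difference was 0.64 with the others raised to it. Cacna1b, the pore subunit of a presynaptic calcium channel, averaged 14.81 ± 0.18 in GFP+ and 14.80 ± 0.15 in GFP- samples and did not pass (0.01 ± 0.11, limma adjusted p = 0.954). The scaffold gene Pclo did not pass either (0.55, adjusted p = 0.0574), and it did pass when the pool entered as a block, random (0.0276) or fixed (0.0121), with a trended prior (0.0395), with quantile normalization within fractions (0.0396), without the dimmest 40% of probe sets (0.0449), without odor replicate 1 (0.0321) and without vehicle replicate 3 (0.0470). Of 10 endocytosis genes 4 rose and 1 fell, with Dnm1, the dynamin that pinches vesicles off, at 0.84 ± 0.21, Pacsin1 at 0.61, the clathrin adaptor gene Snap91 at 0.48 and Bin1, an amphiphysin relative found in many tissues, at -0.43. The call of Bin1 (limma adjusted p = 0.0497) was lost without any 1 pool other than vehicle replicate 3 (adjusted p = 0.0509 to 0.154), with array weights (0.0750), with quantile normalization within fractions (0.0577) and with median-centred arrays (-0.07, 0.672). Snap91 lost its call without odor replicate 4 (adjusted p = 0.0607), and Pacsin1 without both replicate 1 pools (0.0821). With arrays centred on the mature neuron markers, Snap91 (limma adjusted p = 0.274), Pacsin1 (0.203), Bsn (0.0516) and Ppfia2 (0.177) lost their calls. That centring lowers the differences of all probe sets alike, so these losses are not particular to the genes.

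A list of 5 genes held receptors that damp release from olfactory terminals, together with G proteins. Of these, 2 receptor genes rose and 1 G protein gene, Gnai2, fell. The GABA-B receptor subunit gene Gabbr2 averaged 16.43 ± 0.20 in GFP+ and 15.91 ± 0.14 in GFP- samples (0.52 ± 0.12, limma adjusted p = 0.00324), and the dopamine receptor gene Drd2 averaged 13.60 ± 0.19 in GFP+ and 13.18 ± 0.16 in GFP- samples (0.43 ± 0.12, adjusted p = 0.0134). The partner subunit gene Gabbr1 and the G protein gene Gnao1 had differences of 0.16 and 0.22 and did not pass. With arrays centred on the mature neuron markers none of the 5 rose, so the calls of Gabbr2 and Drd2 were lost, and Drd2 also lost its call without both replicate 1 pools (adjusted p = 0.0516). Gnai2, a G protein gene that immune cells express strongly, averaged 6.39 in GFP+ and 12.58 in GFP- samples. It was above the floor on 2 of 8 GFP+ arrays, and its difference was -5.85 with the others raised to the floor.

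**Figure D4:**
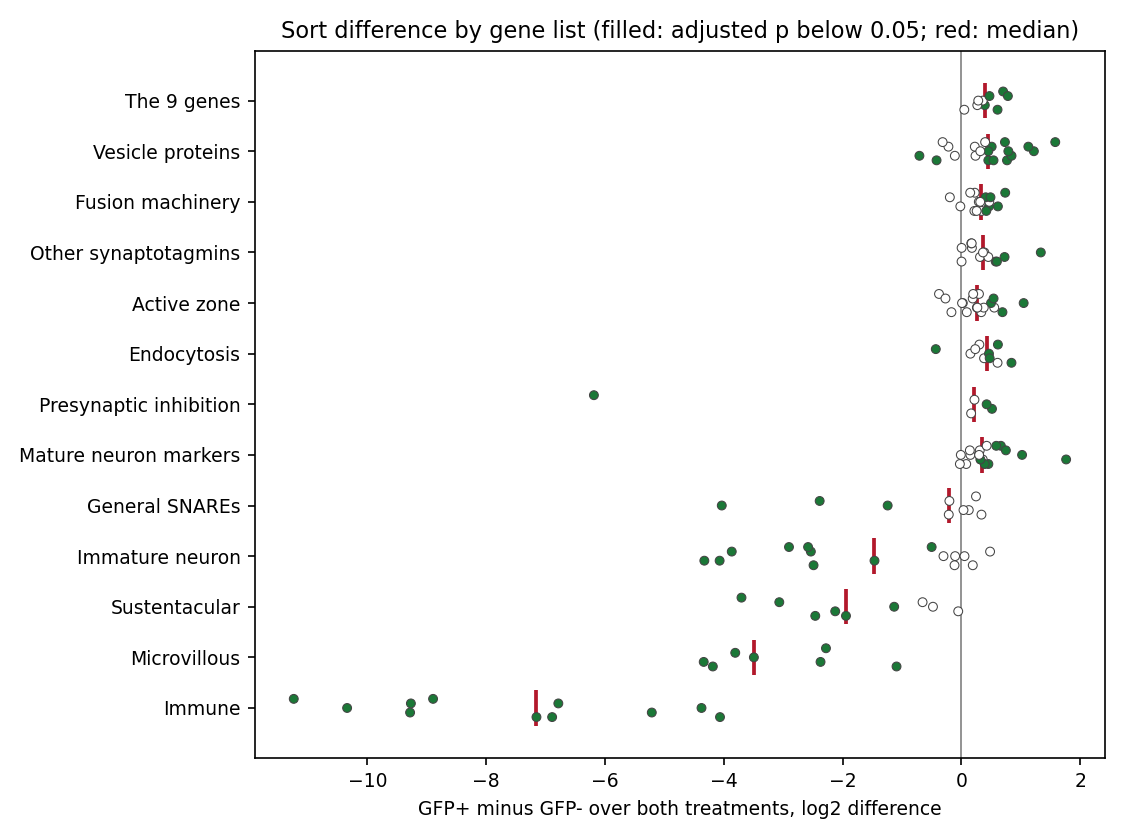
GFP+ minus GFP- log2 difference over both treatments (horizontal) for each measured gene, with 1 row per gene list, filled points where the limma adjusted p was below 0.05 and a red bar at the median. Vesicle proteins had 11 of 20 higher and 2 lower, whereas all 11 immune markers were lower.

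Markers of other cell types moved with the sort in the same arrays. All 11 measured immune markers fell in GFP+ cells. Their mean signal was 4.64 to 5.42 on GFP+ arrays, which is below the floor, and 11.22 to 13.72 on GFP- arrays. S100a8, a neutrophil gene, was at least 415-fold lower, since no GFP+ array was above the floor, and the neutrophil granule gene Ngp and the lysozyme gene Lyz2 had differences of -11.07 and -9.06 with GFP+ arrays under the floor (3 and 5 of 8) raised to it. Of 9 sustentacular (supporting) cell markers 6 fell (array means of 7.28 to 8.35 for GFP+, against 9.17 to 9.97 for GFP-). All 7 microvillous cell markers fell (4.55 to 5.13 for GFP+, below the floor, against 7.52 to 8.10 for GFP-). So did both erythroid markers measured, 9 of 15 immature neuron markers and 4 of 7 basal or progenitor markers. Of these, Chat (on the microvillous list too), Marcksl1 (immature neuron) and Neurog1 (progenitor) were below the floor on every array, which leaves 6 microvillous, 8 immature neuron and 3 basal or progenitor markers that fell and were above the floor on at least some GFP- arrays. Mki67, a gene of dividing cells, fell at least 34.8-fold, and Gng8, a G protein gene of immature olfactory neurons, at least 6.22-fold. Dpysl3, another immature neuron gene, had a difference of -4.07 (-3.99 with 2 of 8 GFP+ arrays raised to the floor). Tubb3, a tubulin gene that mature neurons also express, averaged 13.93 in GFP+ and 13.88 in GFP- samples and did not pass. Dcx, on the same list, averaged 12.81 in GFP+ and 12.32 in GFP- samples. Its difference of 0.48 did not pass (limma adjusted p = 0.0645), nor did that of Stmn4 (0.19). With median-centred arrays 3 of the 15 immature neuron markers rose, as did 65% of all probe sets. Of 5 ensheathing glia markers 1 passed in each direction, both below the floor, and of 6 endothelial or stromal markers 2 fell, of which Dcn was at least 1.28-fold lower and Pecam1 lay below the floor. In pooled cells of this kind, fewer cells of a type and less RNA per cell cannot be told apart. The part of these markers in the differences of the 9 genes was not tested.

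The 18 mature neuron markers set a scale for the 9 genes: 8 rose and 0 fell, against 13.4% and 13% of all probe sets. With median-centred arrays 17 of the 18 rose, as did 65% of all probe sets. Without centring their median difference was 0.34, with array means of 15.91 to 16.33 for GFP+, against 15.45 to 15.92 for GFP-. These values and the centring include Cngb1, which was below the floor on every array. Kcnmb3, a potassium channel subunit gene, was higher by 1.76 ± 0.21, and the phosphodiesterase genes Pde1c by 1.02 ± 0.13 and Pde4a by 0.75 ± 0.12. Gnal and Stoml3, which like Omp lay near the top of the scale, had differences of 0.08 and -0.01 and did not pass. With median-centred arrays Gnal passed at 0.44 and Stoml3 at 0.35. Of 9 SNARE and SNARE-binding genes with roles in many cell types, none rose, 3 fell and 6 did not pass, 4 of which had positive differences of 0.04 (Stx4a) to 0.34 (Stx3). With median-centred arrays 4 of these 9 rose and 3 fell, where 65% of all probe sets rose. Snap23, the relative of Snap25 used outside neurons, averaged 8.25 ± 0.47 in GFP+ and 10.63 ± 0.57 in GFP- samples (-2.39 ± 0.24, limma adjusted p = 3.72e-07), and Stxbp2, a fusion regulator of blood cells, was at least 6.12-fold lower. Vamp8, the third to pass, was below the floor on every array of both fractions.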

How the data were processed

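Per the labels' protocols, total RNA (50 to 100 ng per sample) was hybridised to Clariom S mouse arrays. The authors deposited a log2 signal for each probe set, and the submitters' processing notes name Affymetrix Expression Console. Which version, summarisation method and annotation were used is not given in the sources used here. Of 28846 probe sets 6640 control rows were left out and 22206 tested, of which 19572 had 1 gene symbol from a platform annotation table and 2634 had none here. Where every array of the dimmer fraction lay under its background floor, the fold is a bound, set by the mean signal of the brighter fraction over the mean of the floors of the dimmer one.

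Sample titles gave the groups and the replicate numbers. The limma package (3.58.1, in R 4.3.3) fitted 4 group means with lmFit and eBayes, with 12 residual degrees of freedom. GFP+ was set against GFP- within each treatment and over both, odor against vehicle within each fraction, and the sort difference in odor against that in vehicle. Fractions of a pool share mice, by the labels, and the deviations of a pool's fractions from their group means had correlations of 0.0749 to 0.425 over the 4 odor pools and of 0.0136 to 0.352 over the 4 vehicle pools (consensus 0.171). The fits with the pool as a block are given beside the results named in the text whose call they changed.

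The 9 genes and all gene lists were chosen with earlier results of these data known. Genes were named from each list by a rule, up to 3 with the highest and 3 with the lowest differences among those that passed and up to 2 of highest mean that did not. All measured members of the transmitter list are named, as are Stx4a, Stx3, Marcksl1, Neurog1 and Dcx, which goes beyond that rule. Not every gene that the rule picked is printed. Alternatives included quantile normalization, centring, a trended prior, filters on dim probe sets, array weights, blocks, and pools left out. Plots used Python 3.11.15 and matplotlib 3.10.9.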

Additional observations from a re-analysis of the deposited data

Results flagged for a closer look

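In 3 of 36 groups of 4 samples, formed by the 9 genes and the 4 sample groups, the highest or lowest sample lay farther from the rest than the 95% critical value of Dixon's test allows, and chance gives about 1 in 20 groups. For Omp the vehicle GFP+ sample of replicate 3 was lowest at 19.19, on the array with the lowest maximum (19.51). For Snap25 the odor GFP+ sample of replicate 3 was lowest at 16.01. For Syt1 the vehicle GFP+ sample of replicate 1 was highest at 15.85, in a pool whose values for these genes stood high.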

How the results depend on the processing

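A set of 21 alternatives was run, of which 2 were chosen after seeing the data (arrays centred on the mature neuron markers, and both replicate 1 pools left out). The 3 genes that passed in odor became 9 with median-centred arrays, 0 with arrays centred on the mature neuron markers and 0 without both replicate 1 pools. They became 4 with a trended robust prior or any block, and 2 when the fit held the odor arrays alone. The 1 gene that passed in vehicle became 4 with a trended robust prior, 2 with quantile normalization over all arrays or within fractions, 9 with median centring, 2 when the pool entered as a block, random or fixed, and 3 with the replicate number as a replicate block, where Snap25 passed too (limma adjusted p = 0.0497). The 5 over both treatments became 9 with median centring and 2 with centring on the mature neuron markers, 7 with a trended prior or quantile normalization over all arrays, and 6 with quantile normalization within fractions, the 40% filter, array weights or any block, and the 29 presynaptic list genes became 63 and 11. Leaving out 1 pool at a time gave 0 to 3 genes in odor, 1 in vehicle, 4 to 6 over both treatments and 24 to 31 presynaptic list genes. No setting gave a call between odor and vehicle for any of the 9 genes. The sort difference of Stoml3 over both treatments, -0.01, was 0.347 with median centring (limma adjusted p = 0.00609). Of 558 recomputed sort differences of the 9 genes 491 kept their side of the threshold, 25 lost the call, 42 gained it and none reversed as a call, while 7 that did not pass changed sign. Of all calls over both treatments 50.8% were higher (2976 higher, 2877 lower), against 60.9% with quantile normalization, 87.1% with median centring and 18.2% with centring on the mature neuron markers. Each centring moves the differences of all probe sets in a comparison by the same amount. The cause of the shift with quantile normalization was not tested, nor was that of the difference in array medians between fractions. The pool as a fixed block cannot be fitted between odor and vehicle. Precision is limited by 4 pools a group. The signal of Omp lay close to the highest value of each array, and how far this limited its differences was not tested.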
